A study of Homo sapiens with 12 samples.

Results

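The genes described here are 10 that mark the melanocyte lineage or its loss in melanoma, namely the transcription factors MITF, SOX10, PAX3 and SOX9, the pigment cell genes PMEL, MLANA, TYR and DCT, and the neural crest and glial markers NGFR and S100B. They were chosen by name, and all 10 of them were found among the 20263 genes of the deposited table. RNA-seq had been performed on A375 cells, an established line of human melanoma that the labels give as skin tumor of WT genotype, in 4 groups of 3 libraries. Ctrl cells received neither agent, and the others received DdBIC (dodecyl 1H-benzo[d]imidazole-5-carboxylate, written DBIC in the labels), hemin, which is a form of heme, or DdBIC+Hemin. The design asks how gene expression differs between cells that DdBIC drives into pyroptosis, a lytic form of cell death, and cells that hemin protects from it. The dose and the duration of treatment behind these libraries are not given in the sources used here, and the study's general statement that its data come from independent experiments does not name these libraries. Whether the 3 libraries of a group came from separate cultures is thus not known here, so the p-values measure the spread between these libraries, which may be technical. All groups are of the same line, and in bulk RNA fewer cells with a transcript and less of it per cell cannot be told apart.

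In pigment cells SOX10 and PAX3 act on the promoter of MITF, and MITF in turn acts on the genes that build the melanosome and its pigment, among them TYR, DCT, PMEL and MLANA. Melanomas that lose this programme are called dedifferentiated. Such cells often keep or gain neural crest features, including NGFR, the low-affinity neurotrophin receptor, and SOX9, a relative of SOX10 that is known from cartilage and neural crest. S100B, a calcium-binding protein of glia and melanocytes, is a common marker of melanoma.

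The library totals were 37951275 to 44358912 counts. The log2 CPM of libraries in the same group correlated across genes at 0.992 to 0.993, and 0 pairs of libraries held identical counts. HMOX1, the heme-degrading enzyme that hemin induces, was 8.71 CPM (read counts scaled to a common library size, after TMM scaling) in Ctrl and 7.82 in DdBIC libraries, against 63.2 in Hemin and 169 in DdBIC+Hemin libraries. Among markers of other skin and blood cells, KRT1 and PTPRC were at 0 counts in all 12 libraries, and KRT5 held 1 count in all. Of 5 leukocyte markers 2 passed the filter, LYZ at 52 to 88 counts per library and CD14 at 16 to 55. All 4 endothelial markers passed it, KDR at 140 to 233 counts. Of these CDH5 rose with DdBIC, from 0 to 10 counts in Ctrl to 22 to 27 (log2 fold change 2.14, adjusted p = 0.0211), and the 4 together summed to between 1.66 and 2.57 TPM (the deposited abundance scaled by transcript length) in Ctrl and between 2.21 and 2.37 in DdBIC libraries. Of the 4, 0 passed without Ctrl replicate 2, without DdBIC replicate 1 or with a fit of both groups alone in edgeR, and 1 passed in DESeq2. Of 5 fibroblast markers 4 passed the filter, and COL1A2, which did not, held 26 counts in all. The 5 together summed to between 9.43 and 10.3 TPM in the Ctrl libraries. DdBIC libraries were lower, between 6.78 and 6.87, the Hemin libraries lay between 9.44 and 11.3, and those given both agents between 8.44 and 8.90. Of the 4 tested, LUM alone passed with DdBIC in edgeR's quasi-likelihood test (log2 fold change -0.40, adjusted p = 0.012), and 1 passed in DESeq2. The 6 keratinocyte markers, of which KRT10 had the highest mean TPM, summed to between 61.5 and 66.4 TPM in Ctrl, between 69.7 and 83.8 in DdBIC, between 69.3 and 75.5 in Hemin and between 57.2 and 68.3 in DdBIC+Hemin libraries. Of the 2 tested, KRT10 passed with DdBIC in the same edgeR test (log2 fold change 0.20, adjusted p = 0.0396) and KRT14 did not. The part of these markers in the results below was not tested.

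The regulatory sequences that connect MITF with its targets are shown first, because MITF and its pigment gene targets were measured at very different levels. RefSeq promoters (GRCh38.p14, 250 bases before to 50 after a start) were on hand for 5 of the 10 genes, in 8 entries. The entry of MITF that starts the melanocyte form lies at chr3:69936342-69936641 on the plus strand and holds a cyclic AMP response element, TGACGTCA, whose first base is 152 bases before the start. The capitals mark that element.
MITF: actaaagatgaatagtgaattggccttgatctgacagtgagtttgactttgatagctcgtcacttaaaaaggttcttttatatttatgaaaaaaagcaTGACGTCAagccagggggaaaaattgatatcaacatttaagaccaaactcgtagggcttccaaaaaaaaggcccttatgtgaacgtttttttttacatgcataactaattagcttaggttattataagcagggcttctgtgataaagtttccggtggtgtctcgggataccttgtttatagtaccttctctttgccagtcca
For TYR, at chr11:89177625-89177924 on the plus strand, and DCT, at chr13:94479633-94479932 on the minus strand, capitals mark the core of the M-box, the letters TCATGTG that MITF is known to bind (CACATGA when read on the other strand).
TYR: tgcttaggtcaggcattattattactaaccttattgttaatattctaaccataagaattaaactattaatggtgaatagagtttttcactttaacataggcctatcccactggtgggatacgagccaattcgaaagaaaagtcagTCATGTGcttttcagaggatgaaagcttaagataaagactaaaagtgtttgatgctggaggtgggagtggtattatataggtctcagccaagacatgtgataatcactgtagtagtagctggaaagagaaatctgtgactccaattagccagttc
DCT: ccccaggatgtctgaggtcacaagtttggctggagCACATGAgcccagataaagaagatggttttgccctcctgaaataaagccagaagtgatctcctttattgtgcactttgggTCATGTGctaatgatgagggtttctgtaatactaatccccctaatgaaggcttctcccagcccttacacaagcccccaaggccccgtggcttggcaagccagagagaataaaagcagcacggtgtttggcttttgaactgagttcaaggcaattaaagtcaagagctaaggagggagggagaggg
In TYR the match begins 105 bases before the start. In DCT there are matches at 135 and, on the other strand, at 215 bases before it. Of 35116 promoters of this length, 2.92% hold the M-box core on either strand and 1.85% hold the response element, which reads the same on both strands. The response element ends in the letters with which the M-box core begins, TCA, so that matches of both can share bases, but none of the entries of these genes holds both. The entries of PAX3 and MLANA, the remaining entries of MITF and the other entry of DCT hold neither. A match describes letters in a window and is not a binding site measured here.

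The lineage genes were expressed at very unequal levels. To compare genes, the deposited TPM is used here. In Ctrl, SOX10 stood at 525 ± 10.03 TPM (SD, n = 3), at rank 251 of the 20263 genes. NGFR followed at 87.4 ± 3.38 and S100B at 22.1 ± 2.25 TPM. PAX3 (12.6 ± 1.64) and MITF (9.98 ± 1.84) came next, and their libraries overlapped, since PAX3 ranged from 10.7 to 13.6 TPM and MITF from 7.92 to 11.5. SOX9 was at 0.966 ± 0.0452 TPM and PMEL at 0.680 ± 0.117. The Ctrl libraries of SOX9 (0.931 to 1.02) did not overlap those of PMEL (0.547 to 0.766).

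The pigment genes were close to absent. MLANA, the melanosomal antigen MART-1, was 0.279 TPM in Ctrl, DCT (dopachrome tautomerase) 0.123 and TYR (tyrosinase, the enzyme that starts melanin synthesis) 0.00919. SOX10 was thus 52.6 times as abundant per length as MITF, 773 times as PMEL and 1879 times as MLANA. In counts, MLANA had 1 to 17 per library, DCT 5 to 17, PMEL 16 to 43 and SOX10 21068 to 31276. TYR had 0 counts in 10 libraries and 2 counts each in Ctrl replicate 3 and DdBIC+Hemin replicate 3. A count of 0 over the 3 DdBIC libraries allows up to 0.0245 CPM (3 counts over the group, counting error only), so no difference in TYR was detectable at this depth. TYR was also the member that did not pass edgeR's filter on low counts, and the other 9 were tested. Of the genes that the label of a melanocyte lineage names, SOX10, PAX3 and MITF were thus detected in these cells, while the pigment genes lay between 0.00919 and 0.680 TPM in Ctrl.

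**Figure D1:**
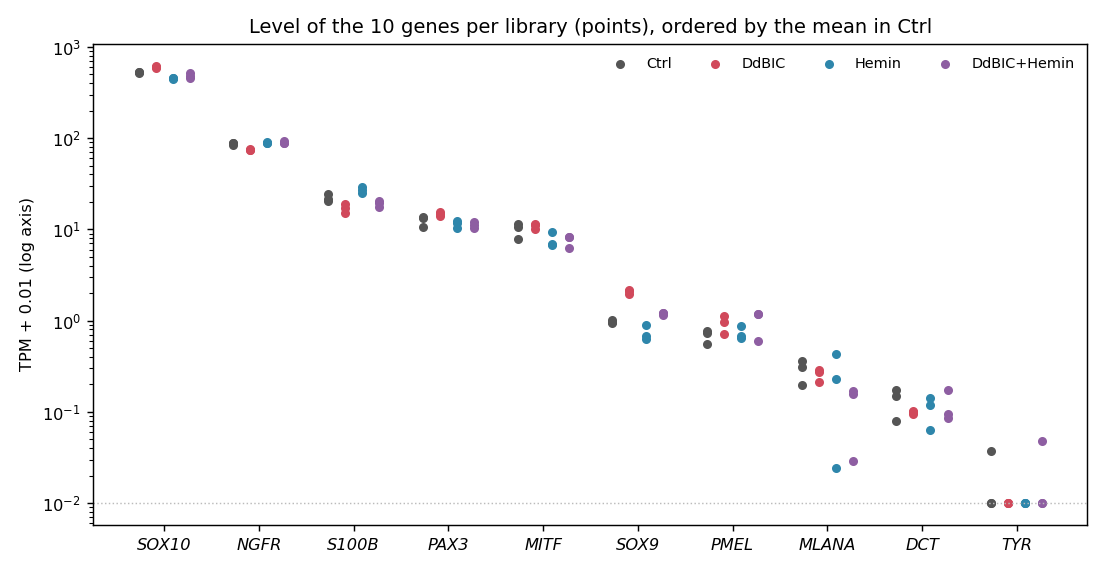
Deposited TPM (vertical log axis, with 0.01 added so that 0 can be drawn on the dotted line) of the 10 genes in each of the 12 libraries, coloured by group and ordered by the Ctrl mean. SOX10 stands above 400 TPM in all groups, while PMEL, MLANA, DCT and TYR stay below 1.2.

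To see how DdBIC altered these genes, the DdBIC libraries were compared with Ctrl. SOX9 rose 2.12-fold, and PMEL (1.87-fold), PAX3 (1.24-fold) and SOX10 (1.17-fold) rose as well, whereas NGFR fell to 0.852 and S100B to 0.780 of the Ctrl level. The lineage factors SOX10 and PAX3 and the neural crest markers NGFR and S100B thus moved in opposite directions, and SOX9 moved with the former. MITF, MLANA and DCT did not pass the test. Of the 9 tested, 6 (66.7%) had an adjusted p under 0.05 in edgeR's quasi-likelihood test, 4 higher and 2 lower. Among all 14287 genes tested 37.2% did, 20.0% higher and 17.2% lower. The median log2 fold change was 0.23 over the 9 and -0.0082 over all genes.

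SOX10, the neural crest factor required for the melanocyte lineage, was 617, 644 and 639 CPM in the Ctrl libraries and 741, 769 and 711 with DdBIC. All 3 DdBIC libraries lay above all of Ctrl, as was so for 50.0% of all genes in one direction or the other. Its log2 fold change was 0.23 (standard error 0.0457, adjusted p = 0.00254). SOX10 lies at chr22:37970686-37987422 on the minus strand of GRCh38 and shares exonic bases with POLR2F on the plus strand. Strand use in the counting is not given in the sources used here, so reads of both cannot be told apart. POLR2F, a subunit of RNA polymerases, had a log2 fold change of -0.11 (adjusted p = 0.0366), and how much of the SOX10 counts came from POLR2F was not tested.

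PAX3, a paired-box factor of neural crest and muscle precursors (chr2:222199888-222298996), was 14.5, 15.8 and 12.7 CPM in Ctrl and 18.5, 17.9 and 17.0 with DdBIC. The groups did not overlap, and the log2 fold change was 0.31 (standard error 0.0822, adjusted p = 0.0114). SOX9 (chr17:72121020-72126420) was 1.81, 1.79 and 1.94 CPM in Ctrl and 3.99, 3.74 and 4.02 with DdBIC. These libraries were far apart compared with their spread, with a log2 fold change of 1.08 (standard error 0.132, adjusted p = 7.19e-05), although 3.92 CPM remains a low level.

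MITF, the factor that directs melanocyte fate and pigmentation (chr3:69739435-69968337), was 15.6, 14.6 and 17.0 CPM in Ctrl and 21.5, 18.9 and 14.9 with DdBIC. DdBIC replicate 3 lay within the Ctrl range. The log2 fold change was 0.23 (95% interval -0.30 to 0.76, adjusted p = 0.476), so a change of the size seen in SOX10 or PAX3 was within its error.

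Of the pigment genes, PMEL, which forms the fibrils of the melanosome (chr12:55954105-55973317, minus strand), had 20, 19 and 16 counts in Ctrl and 43, 24 and 38 with DdBIC. The groups did not overlap but the counts were few, and the log2 fold change was 0.90 (standard error 0.284, adjusted p = 0.0275). This call was lost in 7 of 19 alternative analyses, with the block, with a fit of both groups alone and without any 1 of the Ctrl libraries, DdBIC replicate 1 or DdBIC replicate 3, with an adjusted p of up to 0.109. PMEL shares exonic bases with CDK2 on the plus strand, a far more abundant gene at 84.0 CPM in Ctrl and 90.5 with DdBIC (log2 fold change 0.11, adjusted p = 0.0763), and how much of the PMEL counts came from CDK2 was not tested. MLANA (chr9:5890802-5910606) had 9, 14 and 17 counts in Ctrl and 12, 14 and 10 with DdBIC. DCT (chr13:94436808-94479682) had 14, 11 and 7 in Ctrl and 9 in each DdBIC library. Both overlapped between the groups, and their 95% intervals were wide (-1.49 to 1.12 for MLANA and -1.22 to 0.68 for DCT, on the log2 scale).

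Among the markers of the neural crest state, NGFR (chr17:49495293-49515017) was 145, 147 and 136 CPM in Ctrl and 125, 120 and 120 with DdBIC. All DdBIC libraries were below all Ctrl libraries, and the log2 fold change was -0.23 (standard error 0.0349, adjusted p = 0.000356). S100B (chr21:46598962-46605208) was 8.71, 10.6 and 9.13 CPM in Ctrl and 6.59, 7.33 and 8.23 with DdBIC. Its log2 fold change of -0.36 (standard error 0.107, adjusted p = 0.021) lost its call in 4 of 19 alternatives, with a fit of both groups alone and without Ctrl replicate 2, DdBIC replicate 1 or DdBIC replicate 2, with an adjusted p of up to 0.0852. NGFR shares exonic bases with AC006487.1 and AC015656.1 on the minus strand.

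**Figure D2:**
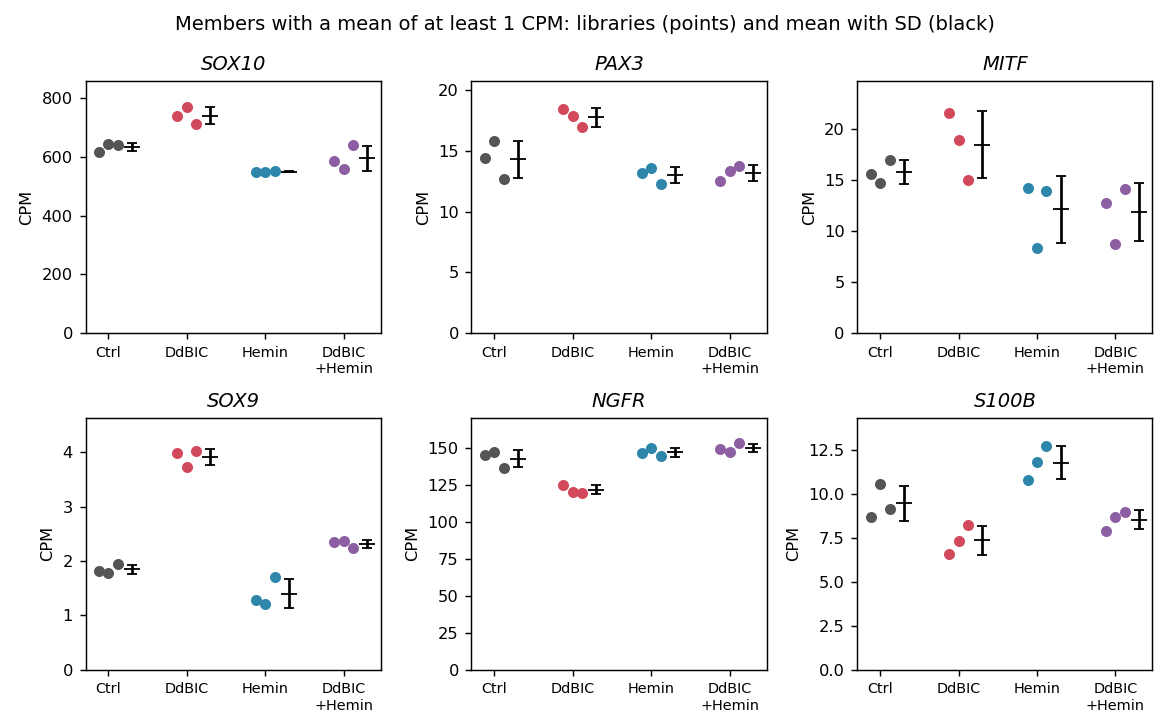
CPM (vertical axes, from 0) of the 6 genes whose mean reached 1 CPM, in each library (points) with the group mean and SD in black. SOX10, PAX3 and SOX9 are highest in the DdBIC libraries and NGFR lowest there. S100B is lowest there by the group mean only, since its DdBIC libraries (6.59 to 8.23 CPM) overlap those of DdBIC+Hemin (7.93 to 9.01). MITF is lowest in replicate 2 of Hemin and of DdBIC+Hemin.

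Hemin alone was compared with Ctrl to see what it does without DdBIC. SOX10 fell to 0.867 of its Ctrl level and was the only member past the threshold, 1 of 9 (11.1%) beside 4.06% of all genes, 1.47% higher and 2.59% lower. Its Hemin libraries were 548, 549 and 551 CPM, below the 617 to 644 of Ctrl, with a log2 fold change of -0.21 (standard error 0.0457, adjusted p = 0.0305). The call was lost in 7 of 19 alternatives, with the block and without any 1 of the 6 libraries compared, with an adjusted p of up to 0.103.

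The Hemin libraries of 5 further members did not overlap those of Ctrl, as was so for 25.1% of all genes, but none of the 5 passed the test across all genes. S100B was 10.8, 11.8 and 12.7 CPM with hemin, all above Ctrl (log2 fold change 0.32, adjusted p = 0.144). SOX9 was 1.29, 1.21 and 1.70 CPM, all below Ctrl (-0.40, adjusted p = 0.155). MITF was 14.1, 8.31 and 13.9 CPM, with replicate 2 far below the other two (-0.38, 95% interval -0.91 to 0.16, adjusted p = 0.477). MLANA had 5, 1 and 8 counts, below the 9 to 17 of Ctrl (-1.48, adjusted p = 0.278). PMEL had 22, 29 and 22 counts, above the 16 to 20 of Ctrl (0.42, adjusted p = 0.546). NGFR was 147, 151 and 145 CPM and overlapped Ctrl (0.043, 95% interval -0.037 to 0.12).

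The next comparison was of cells given DdBIC+Hemin with cells given DdBIC, which asks what hemin does where DdBIC is present. It shares the DdBIC libraries with the comparison above, so opposite signs in both are no independent evidence. SOX9 fell to 0.591, PAX3 to 0.743 and SOX10 to 0.804 of the DdBIC level, and NGFR rose 1.23-fold. These 4 of 9 (44.4%) passed the test beside 31.9% of all genes, of which 13.5% were higher and 18.4% lower.

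With both agents SOX10 was 587, 558 and 642 CPM, all below the 711 to 769 of DdBIC (log2 fold change -0.31, standard error 0.0457, adjusted p = 0.000352). PAX3 was 12.5, 13.3 and 13.8 CPM against 17.0 to 18.5 (-0.43, adjusted p = 0.0022). SOX9 was 2.35, 2.36 and 2.23 CPM against 3.74 to 4.02 (-0.76, adjusted p = 0.00105). In all 3 genes the DdBIC+Hemin libraries lay wholly below those of DdBIC, a separation that 44.2% of all genes showed in one direction or the other. NGFR was 150, 148 and 153 CPM against 120 to 125, and thus wholly above (0.30, standard error 0.0349, adjusted p = 6.85e-05).

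MITF was 12.7, 8.70 and 14.1 CPM with both agents. These libraries also lay below the 14.9 to 21.5 of DdBIC, the nearest being 14.1 and 14.9. Its log2 fold change of -0.64 (standard error 0.230) had an adjusted p of 0.0598 and was past the threshold in 5 of 19 alternatives, with an adjusted p of 0.016 in DESeq2. S100B was 7.93, 8.70 and 9.01 CPM and overlapped DdBIC (0.21, 95% interval -0.036 to 0.46). PMEL, MLANA and DCT were not past the threshold, with 23 to 40, 1 to 8 and 9 to 17 counts in the libraries with both agents.

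In hemin-treated cells the addition of DdBIC, that is DdBIC+Hemin against Hemin, left 2 of 9 members past the threshold (22.2%, beside 6.80% of all genes, 3.71% higher and 3.09% lower). SOX9 rose 1.65-fold, from 1.21 to 1.70 CPM with hemin to 2.23 to 2.36 with both (log2 fold change 0.72, standard error 0.136, adjusted p = 0.00869). S100B fell to 0.725 of the Hemin level, from 10.8 to 12.7 CPM down to 7.93 to 9.01 (-0.46, standard error 0.106, adjusted p = 0.0236). Neither gene overlapped between these groups, which held for 26.3% of all genes. The SOX9 call was lost in 1 of 19 alternatives, when only the groups compared were fitted (adjusted p = 0.0737), and that of S100B in 4, without Hemin replicate 2 or 3 or DdBIC+Hemin replicate 1 or 2 (adjusted p of up to 0.0934).

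SOX10 was 558 to 642 CPM with both agents and 548 to 551 with hemin (0.12, 95% interval 0.011 to 0.22, adjusted p = 0.174). PAX3 (0.020, 95% interval -0.17 to 0.21) and NGFR (0.029, 95% interval -0.052 to 0.11) overlapped between the groups.

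Against Ctrl, cells with both agents had 0 of 9 members past the threshold in edgeR and 0 in DESeq2, and 2, PMEL and SOX9, at an unadjusted p under 0.05. Among all genes 12.4% passed, 5.66% higher and 6.74% lower. The libraries of MITF, PMEL, MLANA, SOX9 and NGFR, 5 of the 9, did not overlap those of Ctrl, which held for 31.0% of all genes. MITF was 8.70 to 14.1 CPM beside 14.6 to 17.0 in Ctrl (log2 fold change -0.41, 95% interval -0.94 to 0.12, adjusted p = 0.309). PMEL had 23 to 40 counts beside 16 to 20 (0.75, 0.088 to 1.40, adjusted p = 0.124), and MLANA 1 to 8 beside 9 to 17 (-1.29, -2.73 to 0.15, adjusted p = 0.226). SOX9 was 2.23 to 2.36 CPM beside 1.79 to 1.94, with a log2 fold change of 0.32 (adjusted p = 0.152). SOX10 had -0.089 (95% interval -0.19 to 0.016), NGFR 0.072 (-0.0087 to 0.15) and S100B -0.15 (-0.39 to 0.096).

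Whether the DdBIC effect differed with hemin was tested by the interaction, the effect with hemin minus that without. NGFR alone passed, 1 of 9 (11.1%) beside 16.6% of all genes (6.40% positive and 10.2% negative), with a difference of 0.26 on the log2 scale (standard error 0.0493, adjusted p = 0.0042). Its DdBIC effect was -0.23 without hemin and 0.029 with it. For PAX3 the difference was -0.29 (95% interval -0.56 to -0.024, adjusted p = 0.12), for SOX9 -0.36 (-0.79 to 0.078), for SOX10 -0.11 (-0.26 to 0.040) and for S100B -0.11 (-0.45 to 0.24). The S100B effect of DdBIC was -0.36 without and -0.46 with hemin, and its difference was within the error. The design cannot show that these effects are equal.

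**Figure D3:**
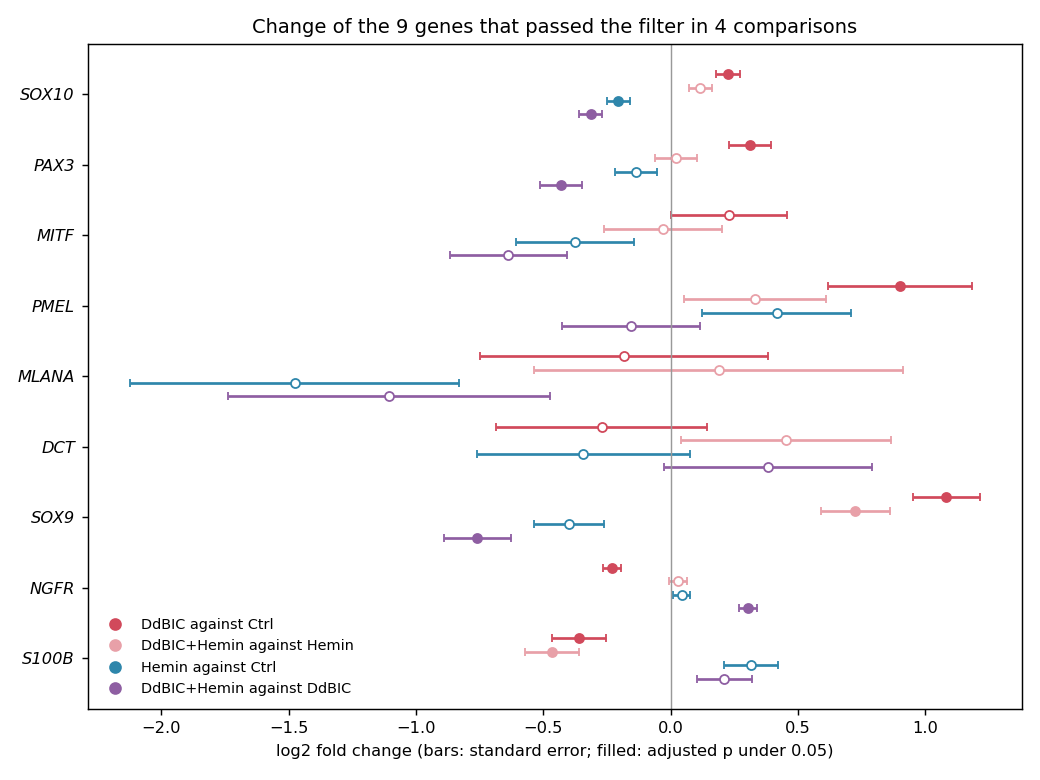
Log2 fold change (horizontal axis) with its standard error (bars) of the 9 tested genes in 4 comparisons, filled where the adjusted p was under 0.05. SOX10 and PAX3 are right of 0 with DdBIC against Ctrl and left of 0 with DdBIC+Hemin against DdBIC, NGFR is the reverse, and SOX9 is right of 0 for DdBIC both without and with hemin.

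The likeness of MITF, SOX10, PAX3, SOX9, NGFR and S100B over the 12 libraries is described by Pearson's r of log2 CPM, with no test since the libraries share groups, and the pigment genes, which averaged under 1 CPM, were left out. The r were positive among the transcription factors, from 0.54 for MITF and SOX9 to 0.87 for SOX10 and PAX3. NGFR and S100B had r of 0.60 with each other and negative r with each of the factors, from -0.53 for MITF and S100B to -0.84 for SOX9 and S100B. Among up to 10678 genes that averaged 5 CPM or more, those most like SOX10 were CYTH2 (r = 0.986), ATXN1L (0.981) and NHSL1 (0.981). SOX9 was most like PPP2R2D (0.990), GRAMD1B (0.983) and RFC1 (0.981), NGFR like QSOX1 (0.971), PAX3 like ZNF689 (0.968), S100B like DIS3L (0.964) and MITF, less closely, like IRF2 (0.898). The libraries fall into 4 groups, so these values of r are not over independent samples.

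Other genes of the melanosome were compared between the groups in the same way. Of 16 listed, 12 were tested, and with DdBIC 1 was higher and 4 were lower than in Ctrl (41.7%, beside 37.2% of all genes). These 5 calls were 3 in DESeq2, 2 with the replicate block, 2 without Ctrl replicate 1, Ctrl replicate 3 or DdBIC replicate 1, and 3 without Ctrl replicate 2 or DdBIC replicate 2. TRPM1 was at 0 counts in every library. GPNMB, a melanosomal glycoprotein that is also common in lysosomes, fell from 89.0 ± 3.20 CPM (SD, n = 3) to 69.8 ± 2.83 (log2 fold change -0.35, adjusted p = 6.22e-05), was 89.0 ± 2.44 with hemin and stood at 86.9 ± 2.58 with both. MYO5A, the motor that carries melanosomes, fell by 0.16 on the log2 scale (adjusted p = 0.00298), and MREG, melanoregulin, fell by 0.40 (adjusted p = 0.0297, lost in 6 of 19 alternatives). With both agents against DdBIC, GPNMB rose by 0.32 (adjusted p = 0.000183) and MYO5A by 0.10 (adjusted p = 0.0383, lost in 7 of 19). Hemin alone altered 0 of 12 in edgeR and in DESeq2, and 0 at an unadjusted p under 0.05.

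Among receptors of melanocytes and genes linked to MITF, 9 of 14 were tested, and KIT, the receptor for stem cell factor, was at 0 counts in all libraries. With DdBIC 1 was higher and 3 were lower (44.4%, beside 37.2% of all genes). MC1R, the receptor for melanocyte-stimulating hormone, rose from 17.1 ± 2.11 to 22.5 ± 0.451 CPM (SD, n = 3; log2 fold change 0.40, adjusted p = 0.00263) and was 14.4 ± 0.707 with both agents, a fall of 0.64 from DdBIC that had an adjusted p of 0.000135. ERBB3, the neuregulin receptor of neural crest cells, fell from 391 ± 22.6 to 310 ± 6.10 CPM with DdBIC (-0.34, adjusted p = 0.000282) and to 309 ± 15.5 with hemin (-0.34, adjusted p = 0.00315). EDNRB, the endothelin receptor of melanoblasts, fell by 0.58 on the log2 scale with DdBIC (adjusted p = 0.00901). TBX2, a T-box factor, was lower with both agents than with DdBIC (-0.47, adjusted p = 0.000623, kept in 19 of 19 alternatives) and lower with hemin than in Ctrl (-0.32, adjusted p = 0.0399, lost in 10 of 19). Of the relatives of MITF, TFE3 and TFEB were tested and 0 of the 2 passed in any of the 6 comparisons, in edgeR, in DESeq2 or at an unadjusted p under 0.05. TFE3 was 134 ± 2.65 CPM (SD, n = 3) in Ctrl and varied widely within the treated groups, at 123 ± 42.6 with DdBIC, 106 ± 43.5 with hemin and 108 ± 45.8 with both.

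The further transcription factors of the neural crest were split by DdBIC. All 20 were tested, and 5 were higher and 6 lower than in Ctrl (55%, beside 37.2%). ETS1 rose from 105 ± 1.80 to 215 ± 7.98 CPM (log2 fold change 1.03, adjusted p = 3.2e-08), and SNAI1, a repressor of epithelial genes, rose from 34.8 ± 1.30 to 70.1 ± 6.09 (1.01, adjusted p = 4.14e-06). MSX2 (0.91, adjusted p = 0.000283) and SOX4 (0.77, adjusted p = 0.000256) also rose. SOX2, a stem cell factor of the same family as SOX10, fell from 9.10 ± 0.743 to 5.03 ± 0.337 CPM (-0.86, adjusted p = 2.15e-05). LEF1, which acts in WNT signalling, fell by 0.63 (adjusted p = 2.16e-05), TWIST1 by 0.63 (adjusted p = 2.99e-05) and POU3F2, the factor BRN2 known from invasive melanoma, by 0.48 (adjusted p = 3.44e-06).

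With hemin alone 1 of the 20 was higher, ETS1 (log2 fold change 0.38, adjusted p = 0.00103). Another 6 were lower, TWIST1 most (-0.61, adjusted p = 0.000672), followed by SOX4, SOX2 and SOX5. These 7 are 35% of the list, beside 4.06% of all genes. The call of SOX4 (adjusted p = 0.0316) was lost in 5 of 19 alternatives and that of SOX2 (adjusted p = 0.0257) in 6 of 19. That of SOX5 was kept in 19 of 19. Adding hemin to DdBIC left 9 lower and 0 higher (45%, beside 31.9% of all genes, 18.4% lower and 13.5% higher), with SOX4 at -1.48 (adjusted p = 2.97e-06), SNAI1 at -0.85, MSX2 at -0.73 and ETS1 at -0.47. Adding DdBIC to hemin left 1 higher, MSX1 (0.34, adjusted p = 0.0017), and 5 lower, among them SOX2 (-0.65, adjusted p = 0.00145), POU3F2 (-0.55, adjusted p = 1.67e-05) and FOXD3 (-0.42, adjusted p = 0.0101), a factor that keeps neural crest cells from pigment cell fate. These 6 are 30% of the list, beside 6.80% of all genes.

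**Figure D4:**
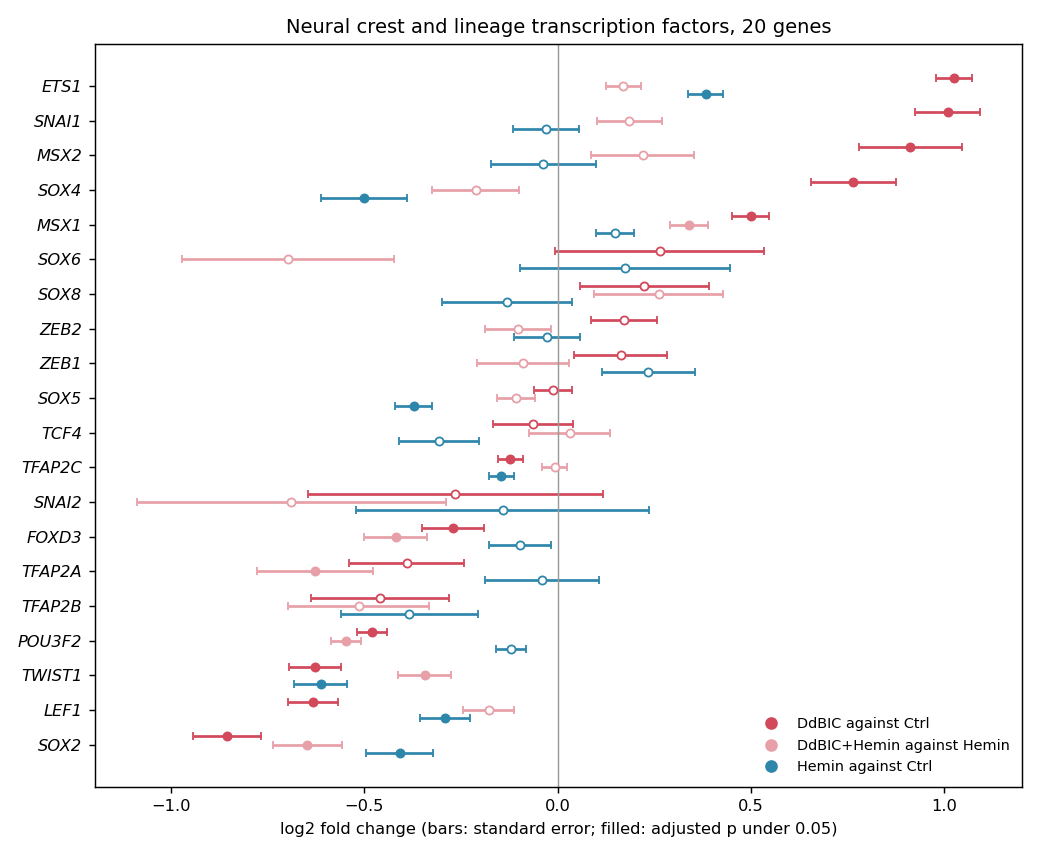
Log2 fold change (horizontal axis) with its standard error (bars) of 20 neural crest and lineage transcription factors in 3 comparisons, filled where the adjusted p was under 0.05. SOX2 and POU3F2 are lower with DdBIC both without and with hemin. ETS1, SNAI1, MSX2 and SOX4 are higher than Ctrl with DdBIC and not past the threshold for DdBIC in hemin-treated cells. There ETS1 stood at 0.17, close to the threshold (adjusted p = 0.0517 in edgeR's quasi-likelihood test), SNAI1 at 0.19, MSX2 at 0.22 and SOX4 at -0.21.

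Genes tied to the dedifferentiated or invasive state of melanoma moved both ways with DdBIC. Of 26, all tested, 11 were higher and 8 lower (73.1%, beside 37.2%). The rises were led by JUN, an AP-1 subunit (40.9 ± 1.57 to 1998 ± 262 CPM, log2 fold change 5.61, adjusted p = 2.59e-10), and by CYR61 (1.70), a known target of cell tension and growth signals. The falls were led by WNT5A, a ligand of invasive melanoma, from 66.7 ± 0.786 to 43.6 ± 1.62 CPM (-0.61, adjusted p = 9.88e-07), with LOXL2 (-0.36), PDGFRB (-0.33) and THBS1 (-0.32) after it. With hemin added to DdBIC 7 were higher and 10 lower (65.4%, beside 31.9% of all genes), JUN at -3.63 and CYR61 at -1.53, and TNC (0.39) and LOXL2 (0.38) above. WNT5A was lower in each of DdBIC against Ctrl, Hemin against Ctrl (-0.36, adjusted p = 0.000974) and DdBIC+Hemin against Hemin (-0.26, adjusted p = 0.0045). Of the 26, 6 passed in Hemin against Ctrl (7 in DESeq2), beside 4.06% of all genes. In DdBIC+Hemin against Hemin 7 passed (10 in DESeq2), beside 6.80% of all genes. There JUN (1.26, adjusted p = 4.05e-05), DKK1 (0.45), VEGFC (0.33) and NT5E (0.27) were higher, and CTGF (-0.44) and THBS1 (-0.35) were lower with WNT5A.

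Of the ligands and partners of NGFR, 8 of 13 were tested, and 4 were higher and 0 lower with DdBIC (50%, beside 37.2% of all genes, 20.0% higher and 17.2% lower). BDNF, a neurotrophin, rose from 4.33 ± 0.264 to 9.05 ± 0.386 CPM (log2 fold change 1.06, adjusted p = 5.1e-05) and was 3.82 ± 0.144 with both agents. The adaptors RIPK2 (0.66) and TRAF6 (0.63) rose with it, while NGFR fell. NTF3 was at 0 counts in every library. With hemin alone 0 of the 8 passed in edgeR and in DESeq2, and 1 at an unadjusted p under 0.05. Of 10 relatives of S100B, all tested, 1 passed with DdBIC (10%, beside 37.2% of all genes), S100A3, which rose by 0.32 (adjusted p = 0.00409). With hemin added to DdBIC 2 of the 10 passed (20%, beside 31.9% of all genes), S100A11, which rose by 0.12 (adjusted p = 0.0338, lost in 6 of 19 alternatives), and S100A13, which fell by 0.19 (adjusted p = 0.0485, lost in 12 of 19). The difference between S100B and its relatives was not tested.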

How the data were processed

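RNA-seq counts of 12 libraries (4 groups of 3, grouped by their labels) were analysed. The authors deposited unnormalized counts per gene for 20263 genes, together with TPM values, which the authors scaled by length and depth, and FPKM values, which were used only to check the length behind them. The submitters' processing notes name Trim Galore, Subread, featureCounts and hg38 without versions, and the strand setting and the tool behind TPM and FPKM are not given in the sources used here. The positions of all 10 members equal those of GENCODE 29 on GRCh38. Across 10121 well-counted genes (over 200 counts per library throughout), count divided by FPKM varied between libraries by a median factor of 1.09, and for MITF by 1.62, so MITF is compared between groups by counts only.

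Tests used edgeR 4.0.16 under R 4.3.3 (filterByExpr, TMM factors, robust quasi-likelihood F tests, 1 mean per group over all 12 libraries, 8 residual degrees of freedom). The Benjamini-Hochberg adjustment ran over all 14287 genes tested, in 6 comparisons, with a threshold of 0.05. Standard errors were obtained by dividing the size of the log2 fold change by the square root of F, and intervals are at the 95% level. The intervals take 8 degrees of freedom, fewer than the F tests use, so they are somewhat wider than those tests imply. CPM values are TMM-scaled. Total counts were 37951275 to 44358912. The study's methods state no count test.

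The 10 members and the context lists were chosen with earlier results of these data known. All members are named. Of each context list, up to 4 genes per direction and comparison with the largest change among those past the threshold and a mean of at least 1 CPM could be named, and for each member with at least 1 CPM the 3 genes with the highest Pearson's r (log2 of CPM plus 0.5, genes of at least 5 CPM). Genes at 0, markers of other cell types, TFE3, TFEB, CDK2 and POLR2F were named after their values were seen. Some genes of these lists enter the counts but are not reported by name here. The same steps were tested on simulated data of 14287 genes in DdBIC against Ctrl, where 77.3% of genes changed by a log2 fold of 1 were recovered and 3.16% of the 95 genes called had not been changed. In Hemin against Ctrl, drawn with both groups alike, 0 were called. Members past the threshold other than SOX9 changed by a log2 fold of less than 1, and recovery at such sizes is not reported here.

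Alternatives were DESeq2 1.42.0 with its size factors, upper-quartile factors, library totals alone, no filter, at least 10 counts in every library, a fit of the compared groups alone, a block for the replicate number, and leaving out each library in turn.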

Additional observations from a re-analysis of the deposited data

Results flagged for a closer look

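The results below differed between cells without and with hemin by a test of the difference itself, the interaction in edgeR's quasi-likelihood test with adjustment over all 14287 genes, of which 16.6% passed. Values are the log2 DdBIC effect with hemin minus that without. They number 24, of which 1 is a member and 23 are among the 44 context genes that the naming rule allows. Those 44 were named for large changes in the comparisons from which the interaction is built, so their number is not read against the share of all genes. Single outlying libraries were not tested for in these groups of 3.

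NGFR, the neurotrophin receptor, had a difference of 0.26 (adjusted p = 0.0042), at 120 to 125 CPM in the 3 libraries with DdBIC alone, below the 136 to 153 of the other 9. This call was kept in every alternative that gave a value (18 of 18, with adjusted p-values of 0.000101 to 0.0134).

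Of the context genes, 9 had a positive difference. These were LEF1 (0.45), LOXL2 (0.40), WNT5A (0.35), GPNMB (0.32), ERBB3 (0.32), PDGFRB (0.32), TNC (0.26), MYO5A (0.16) and NT5E (0.14). A negative difference was found for 14. It was largest for JUN (-4.35), CYR61 (-1.63), CTGF (-1.29) and BDNF (-1.11). Among the others were SOX4 (-0.98), FOSL1 (-0.93), ETS1 (-0.86), SNAI1 (-0.82), MSX2 (-0.69), RIPK2 (-0.56), VEGFC (-0.52), MC1R (-0.38) and DKK1 (-0.23). PDGFRB (adjusted p = 0.0497), MC1R (0.046), MYO5A (0.0444) and NT5E (0.0404) lay close to the threshold.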

How the results depend on the processing

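Of 54 pairs of a member and a comparison, 14 were past the threshold, and 9 of them stayed so with the same sign in every alternative that gave a value: SOX10, PAX3, SOX9 and NGFR both in DdBIC against Ctrl and when hemin was added to DdBIC, and NGFR in the interaction. The other 5 calls were lost in part, as given beside them: PMEL and S100B in DdBIC against Ctrl, SOX10 in Hemin against Ctrl, and SOX9 and S100B in DdBIC+Hemin against Hemin. The cause of these losses was not tested.

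The number of members past the threshold in Hemin against Ctrl was 0 with the replicate number as a block (SOX10 adjusted p = 0.0649) and 0 to 1 when a library was left out. In DdBIC+Hemin against Hemin it was 1 when only the groups compared were fitted and 1 to 2 when a library was left out. Leaving out a library gave 4 to 6 in DdBIC against Ctrl, 4 to 5 in DdBIC+Hemin against DdBIC, 0 to 1 in DdBIC+Hemin against Ctrl and 1 to 2 in the interaction, the highest counts of the last 2 without DdBIC+Hemin replicate 3, where SOX10 passed (log2 fold change -0.15 and -0.17, adjusted p = 0.0262 and 0.0395). MITF in DdBIC+Hemin against DdBIC passed with the block (adjusted p = 0.0332) and without Hemin replicate 2 (0.0217), DdBIC replicate 3 (0.0451) or DdBIC+Hemin replicate 3 (0.0492). SOX9 in Hemin against Ctrl passed without Hemin replicate 3 (adjusted p = 0.0472). Over all genes, Hemin against Ctrl had 580 genes past the threshold, 881 in DESeq2 and 274 to 625 when a library was left out. DdBIC+Hemin against Hemin had 971, 564 when only the groups compared were fitted and 614 to 933 when a library was left out. The level of SOX10 in Hemin was 553 CPM with library totals alone.

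Values of members changed sign in 15 cases, with an adjusted p of at least 0.05 in all 15. PAX3 in DdBIC+Hemin against Hemin was -0.0019 with library totals alone. The others came from leaving out 1 library, which gave ranges of -0.41 to 0.040 for MLANA in DdBIC against Ctrl, -0.37 to 0.058 for PMEL in DdBIC+Hemin against DdBIC, -0.25 to 0.34 for DCT in DdBIC+Hemin against Ctrl, -0.11 to 1.01 for MLANA in the interaction, and, in DdBIC+Hemin against Hemin, -0.24 to 0.15 for MITF, -0.022 to 0.059 for PAX3 and -0.29 to 0.83 for MLANA.

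No scaling moved the median of all genes by over 0.1 on the log2 scale. The share of higher genes among those past the threshold moved from 53.8% to 40.0% in DdBIC against Ctrl, from 42.4% to 59.2% in DdBIC+Hemin against DdBIC and from 38.5% to 55.4% in the interaction with upper-quartile factors, and from 54.6% to 42.3% in DdBIC+Hemin against Hemin and from 45.6% to 34.4% in DdBIC+Hemin against Ctrl with library totals alone. The deviations of same-numbered libraries from their group means correlated at -0.059 to 0.058, and those of differently numbered libraries at -0.076 to 0.118. Of 12 libraries, 6 correlated best with one of their own number. With 3 libraries per group these values cannot decide whether the replicate numbers pair the libraries. Of the 75 context gene and comparison pairs that the naming rule allows, 60 kept their call and sign in the same alternatives, which were added for them after seeing the data, 15 lost the call in at least 1 and 0 reversed. Of the 12 tested genes of the melanosome list, the number past the threshold in DdBIC against Ctrl ranged from 2 to 5, and that of S100 relatives in DdBIC+Hemin against DdBIC from 0 to 3. Depth limits what can be said of TYR, MLANA, DCT and PMEL.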

Other observations

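The libraries with the fewest MITF counts, Hemin replicate 2 (336 counts, 8.31 CPM) and DdBIC+Hemin replicate 2 (350 counts, 8.70 CPM), were also those with the fewest MLANA counts, 1 in each, beside 5 to 17 in the other 10 libraries. They were chosen after their values were seen. SOX10 was 549 and 558 CPM and PAX3 13.6 and 13.3 CPM in the same libraries, within or near the other libraries of their groups. For MITF, count divided by FPKM (relative to the median gene of each library) was 0.921 and 1.01 there and 1.11 to 1.49 in the other 10, so the length behind its FPKM was shortest in these libraries. Which transcripts of MITF, a gene with 18 transcripts and 15 start positions in GENCODE 29, gave those reads was not tested.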
